A study of Mus musculus with 42 samples.

Results

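The genes described here carry glucose into the cell, break it down by glycolysis, divert it into the pentose phosphate pathway and move lactate across the plasma membrane. They were the 33 genes of a fixed list of symbols, all found among the 24225 genes of the deposited table: 4 glucose transporters, the enzymes of the glycolytic steps with their isozymes, 2 lactate transporters, 2 regulators of phosphofructokinase and 7 genes of the pentose phosphate pathway. All 33 reached at least 1 RPKM (reads scaled to transcript length and to library depth) in at least 2 values and were tested. The members were chosen by name, with earlier results of these data known.

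The cells were mouse embryonic stem cells of C57Bl/6 background and the embryoid bodies they form, floating aggregates that differentiate after leukaemia inhibitory factor is taken away. Of the 42 libraries, 22 were labelled wild type (WT, lines W1 and W2) and 20 AMPK double knockout (DKO, lines K1 and K3), so each genotype was 2 lines. Stem cells (day 0) were collected in high glucose, and embryoid bodies on days 2, 4, 8 and 12 in either high glucose (HG, 25 mM) or low glucose (LG, 2.5 mM). AMPK is a kinase activated when cellular energy runs low, with catalytic subunits encoded by Prkaa1 and Prkaa2; which exons the DKO lines lack is not given in the sources used here. All lines had been grown on irradiated feeder cells and passaged without them before collection.

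Glycolysis turns glucose into pyruvate with a small gain of ATP, and lactate dehydrogenase can reduce that pyruvate to lactate for export. The pentose phosphate pathway leaves glycolysis after its first step and supplies NADPH and ribose for nucleotides. Pluripotent cells are known for high glycolytic flux with lactate release, and many differentiated lineages shift toward mitochondrial respiration. AMPK is known to act on glucose uptake and glycolysis at several points, among them the glucose transporters and the enzymes that make fructose 2,6-bisphosphate.

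Headings and expression disagreed in many libraries. The lines can be told apart by the Y-linked gene Ddx3y and the imprinted RNA Meg3, and glucose by Txnip, a transcript induced by glucose. These genes contradicted the heading of 18 libraries, 15 by the line genes and 8 by Txnip. Prkaa2 lay below 1 RPKM in 4 of 22 libraries labelled WT and in 15 of 20 labelled DKO. No library was moved to another group. Values below are from the 24 libraries whose headings were not contradicted (13 WT, 11 DKO), unless they are called "as labelled", which takes all 42 under their headings. In the 24, Prkaa2 ranged from 1.32 to 22.3 RPKM in WT and from 0.019 to 0.959 in DKO, and Prkaa1 from 6.53 to 11.2 in WT and from 4.01 to 6.63 in DKO. Without the contradicted libraries, WT LG days 8 and 12 rested on W1 and DKO HG days 8 and 12 on K3. Depth was 10500000 to 25500000 reads per library, with a median of 15400000.

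Levels differed widely among the members. By median over the 24 libraries, 3 members lay at 500 RPKM or above, 8 between 100 and 500, 14 between 10 and 100, and 8 below 10. The leading 3 were Aldoa, the aldolase that splits fructose 1,6-bisphosphate, with a median of 1031 RPKM, Pkm, pyruvate kinase, with 843, and Ldha, the muscle-type lactate dehydrogenase subunit, with 728. Slc2a3 and Slc2a1, the transporters GLUT3 and GLUT1, followed among the next members with 486 and 310 RPKM. Slc2a4, the insulin-responsive transporter GLUT4, had a median of 1.18 RPKM and Slc2a2, the low-affinity transporter GLUT2 of liver and pancreas, 0.161. Slc2a2 reached 1 RPKM only in WT on days 8 and 12 and was at most 0.790 in DKO. It was thus tested only through the groups where it was high. Its calls by genotype and over WT time are no independent result. The widest spread among members detected everywhere was that of Ldhb, the heart-type lactate dehydrogenase subunit, from 16.3 to 236 RPKM, a 14.5-fold range. Slc16a1, the lactate and pyruvate transporter MCT1, ranged 12.0-fold and Pgam1, phosphoglycerate mutase, 12.0-fold. At the other end, Tpi1, triosephosphate isomerase, ranged 1.79-fold and Rpe, ribulose-phosphate epimerase, 1.90-fold. Gapdh stood at only 1.45 to 6.56 RPKM, Pgam1 at 2.30 to 27.5 and Pgk1 at 11.9 to 53.8. All 3 have near-identical copies in the genome among which reads can be split, so their values are uncertain. Values are likewise uncertain for the 7 members that overlap another gene of the table. Hk1, Pfkm, Pfkp, Tpi1 and Rpe overlap a gene on the opposite strand, and the libraries did not mark strand. Eno1 and Tkt overlap a gene on the same strand.

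**Figure D1:**
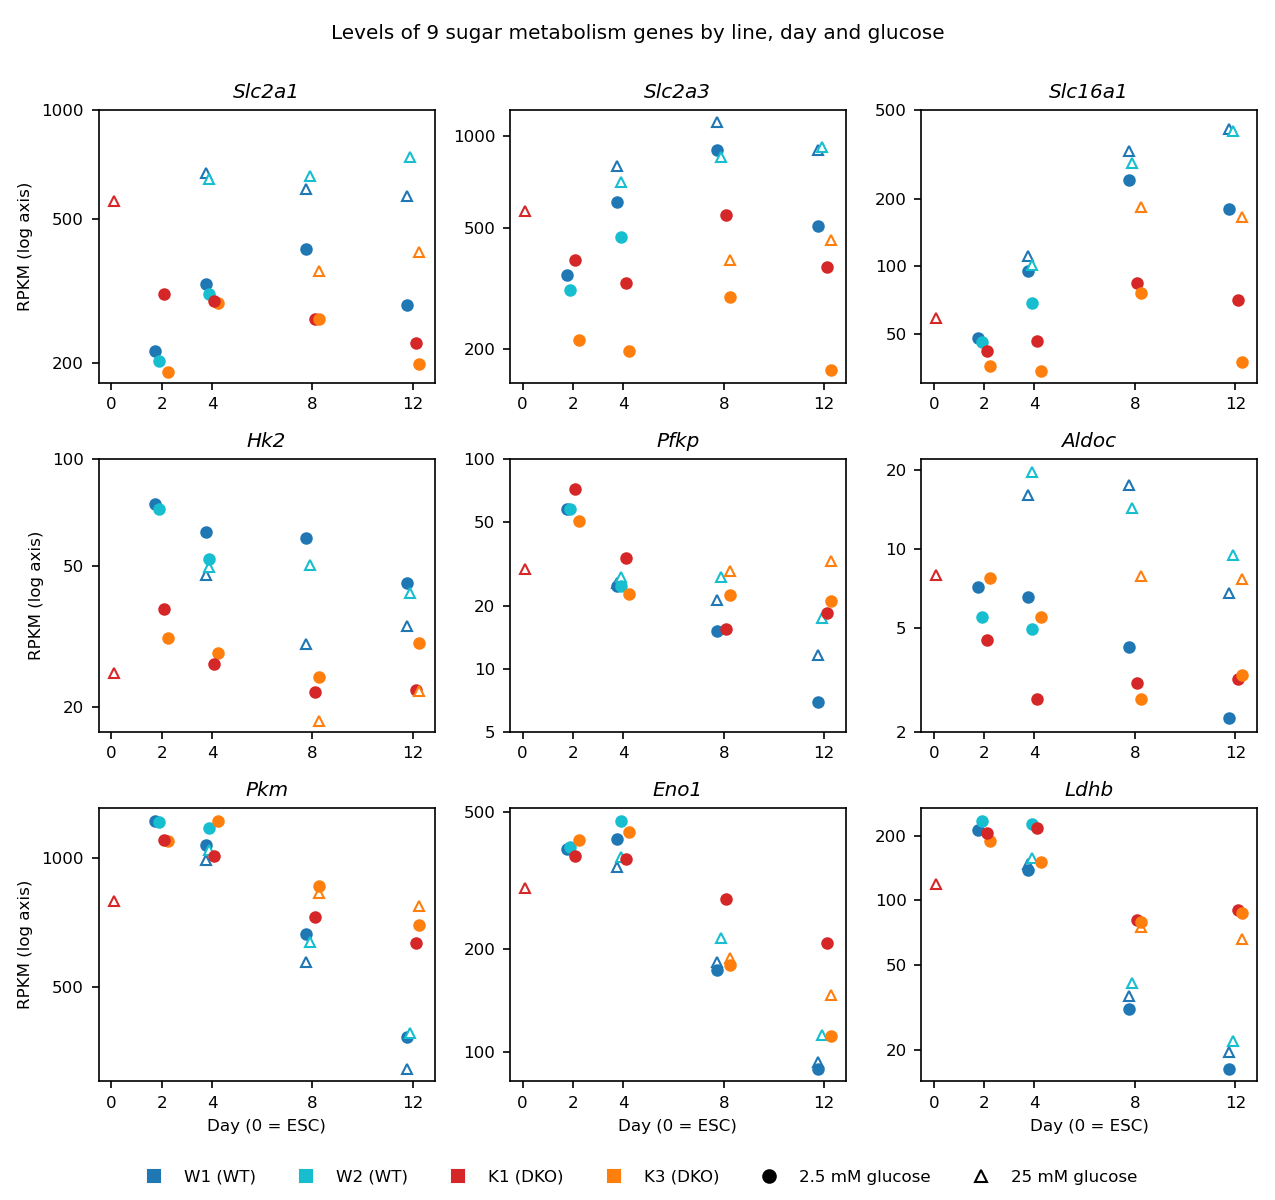
RPKM (log axis) of 9 members by day in the label-matched values, 1 point per line and condition, with line and glucose marked. The lowest values of Ldhb and Pkm are of WT on day 12, and the highest values of Slc16a1 and Slc2a1 are of WT at 25 mM glucose.

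Promoters of 6 members are shown because the first 4 belong to genes that fell together in WT cells at low glucose, while the last pair belongs to the subunits of lactate dehydrogenase, of which Ldhb ranged 14.5-fold and Ldha 2.95-fold. Each is the 250 bases before the annotated start, 5′ to 3′ on the gene's strand, from RefSeq (GRCm38.p6). Capitals mark ACGTG or its reverse complement CACGT, the core letters bound by hypoxia-inducible factors and, as CACGTG, by E-box factors.
Slc2a1 (chr4:119108495-119108744, + strand): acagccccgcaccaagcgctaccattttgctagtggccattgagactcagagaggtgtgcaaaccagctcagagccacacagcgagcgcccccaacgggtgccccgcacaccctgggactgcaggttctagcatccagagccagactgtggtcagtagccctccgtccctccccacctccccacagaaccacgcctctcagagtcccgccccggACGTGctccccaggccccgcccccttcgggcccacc
Gpi1 (chr7:34230337-34230586, - strand): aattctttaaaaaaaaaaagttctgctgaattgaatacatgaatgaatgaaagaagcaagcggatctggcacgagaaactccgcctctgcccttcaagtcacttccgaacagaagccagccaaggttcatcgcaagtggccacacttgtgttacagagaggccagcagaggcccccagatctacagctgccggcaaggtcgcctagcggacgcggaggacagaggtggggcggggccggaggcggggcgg
Aldoa (chr7:126799255-126799504, - strand): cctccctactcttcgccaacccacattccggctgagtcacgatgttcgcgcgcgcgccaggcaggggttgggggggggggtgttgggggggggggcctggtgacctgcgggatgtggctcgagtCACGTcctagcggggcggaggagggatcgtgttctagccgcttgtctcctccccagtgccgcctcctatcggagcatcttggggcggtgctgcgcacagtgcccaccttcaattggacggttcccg
Aldoc (chr11:78322823-78323072, + strand): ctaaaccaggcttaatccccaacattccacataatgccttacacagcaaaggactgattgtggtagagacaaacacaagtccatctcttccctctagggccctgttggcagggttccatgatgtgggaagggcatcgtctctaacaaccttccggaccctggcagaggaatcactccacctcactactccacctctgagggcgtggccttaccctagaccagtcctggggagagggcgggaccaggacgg
Ldha (chr7:46845554-46845803, + strand): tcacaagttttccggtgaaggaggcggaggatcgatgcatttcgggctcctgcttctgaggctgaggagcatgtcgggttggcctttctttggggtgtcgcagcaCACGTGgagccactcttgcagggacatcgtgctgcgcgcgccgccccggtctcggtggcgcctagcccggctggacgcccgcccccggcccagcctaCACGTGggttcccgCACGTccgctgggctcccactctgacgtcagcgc
Ldhb (chr6:142507958-142508207, - strand): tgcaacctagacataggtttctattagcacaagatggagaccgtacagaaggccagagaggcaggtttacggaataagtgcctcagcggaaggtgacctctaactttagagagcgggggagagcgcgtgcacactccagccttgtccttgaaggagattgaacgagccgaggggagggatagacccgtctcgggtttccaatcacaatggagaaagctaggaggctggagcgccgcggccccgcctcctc
Among these windows, Ldha held 5 matches to ACGTG counted over both strands, in which CACGTG counts on each, Slc2a1 and Aldoa held 1 each, and Gpi1, Aldoc and Ldhb held 0. A start site matching the table's was found for 25 of the 33 members. Of these 25 windows, 10 (40%) held ACGTG on either strand, against 16.6% of 32851 promoter windows of the same length, and 3 (12%) held CACGTG against 6.02%. The GC-rich letters GGGCGG occurred in 17 of 25 (68%) against 32.7%, CCAAT in 10 of 25 (40%) against 33.8%, and TATAAA in 1 of 25 (4%) against 12.4%. A match is a stretch of letters, not a bound site.

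The first comparison asked how the genes answered to the glucose supply. In WT embryoid bodies on day 4, 5 of 33 members differed between LG and HG (limma, adjusted p under 0.05), 4 lower in LG and 1 higher, against 12.2% of the 14670 genes tested, of which 7.86% were lower and 4.31% higher. The share of members called, 15.2%, was near that of all genes. The fallers were the transporter Slc2a1, the isomerase Gpi1 and the aldolases Aldoa and Aldoc, and the riser was Rpe of the pentose phosphate pathway. Slc2a1 was at 671 RPKM in W1 and 645 in W2 in HG, and at 332 and 310 in LG. The glucose groups did not overlap, and Slc2a1 was lower in LG by 1.03 ± 0.19 on the log2 scale (limma, adjusted p = 0.00562). All changes below are on the scale log2(RPKM + 1) with their standard error, which understates those of low genes.

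Aldoc, the brain-type aldolase, stood at 16.1 and 19.8 RPKM in HG against 6.55 and 4.94 in LG, a fall by 1.49 ± 0.28 (limma, adjusted p = 0.00694). Aldoa stood at 1729 and 1842 against 1137 and 1018, a fall by 0.73 ± 0.14 (limma, adjusted p = 0.00755). Both aldolases were thus lower in LG in each line. Gpi1, glucose-6-phosphate isomerase, was at 261 and 263 in HG and at 195 and 175 in LG (-0.50 ± 0.11, limma, adjusted p = 0.0121). Rpe was at 25.5 and 21.6 in HG and at 31.3 and 35.2 in LG (0.48 ± 0.12, limma, adjusted p = 0.0261). Slc2a3 was at 799 and 707 in HG and 607 and 467 in LG without passing the test (-0.50 ± 0.40, limma, adjusted p = 0.465). With line as a block, which removes stable differences between W1 and W2, 9 members passed, the further 4 being Slc2a3 (-0.50 ± 0.12, limma, adjusted p = 0.0187), Hk1, Pfkfb3 and G6pdx.

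The day 4 result depended on the libraries used. As labelled, 0 of 33 members and 0% of all genes were called (limma; 0 members at an unadjusted p under 0.05), with Slc2a1 at -0.19 ± 0.33. No member was called without W1 or without W2, and 10 were without K1 or without K3, which enter through the shared estimate of spread. Here and in the comparisons below, calls over all genes moved with the line left out too, so such counts are not particular to the members. Under median-of-ratios scaling, 2 members were higher and 3 lower, and Gpi1 was not called. Marker sums moved with glucose too: 7 genes of mesoderm and heart summed to 24.9 and 59.4 RPKM in HG against 2.34 and 2.72 in LG. Most of these HG sums was the single gene T, at 20.5 and 47.7 RPKM. Of the 7 genes, 2 were called lower in LG and 0 higher. The part of these markers in the result was not tested. In such bulk samples, fewer cells of a type and less RNA per cell cannot be told apart.

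On days 8 and 12 together, 9 of 33 members were lower in LG than in HG in WT and none was higher, against 14.8% of all genes tested in either direction and 10.5% lower. They included the 4 fallers of day 4 (Slc2a1, Gpi1, Aldoa and Aldoc) and the phosphofructokinase subunits Pfkp and Pfkm. The others were Eno3, the muscle-type enolase, and the transporters Slc16a1 and Slc2a2. Over all 33 members the median change was -0.25, against -0.06 over all genes tested. Slc2a1 was at 604 and 656 RPKM in HG on day 8 and 581 and 743 on day 12, against 412 and 290 in W1 in LG, so every HG value lay above both LG values (-0.89 ± 0.16, limma, adjusted p = 0.00421). Aldoc was at 6.81 to 17.5 RPKM in HG and at 4.24 and 2.25 in LG (-1.58 ± 0.24, limma, adjusted p = 0.00183). Eno3 was at 29.4 and 30.5 in HG on day 8 and 13.4 and 10.9 on day 12, against 9.56 and 4.75 in LG (-1.37 ± 0.18, limma, adjusted p = 0.000801).

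Gpi1 was at 194 and 174 RPKM in HG on day 8 and 108 and 126 on day 12, and at 125 and 78.5 in LG (-0.56 ± 0.09, limma, adjusted p = 0.00263). The ranges overlapped across days but not within a day. Slc16a1 was at 329 and 289 in HG on day 8 and 413 and 404 on day 12, and at 243 and 180 in LG (-0.76 ± 0.21, limma, adjusted p = 0.033). Pfkm, Pfkp, Aldoa and Slc2a2 fell by 0.66, 0.79, 0.43 and 1.22. Ldha did not pass (-0.22 ± 0.18, limma, adjusted p = 0.467), nor did Hk2, hexokinase 2, whose values were 30.1 to 50.4 in HG and 59.8 and 44.7 in LG (0.42 ± 0.18, limma, adjusted p = 0.15).

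As labelled, 3 of 33 were called on these days, against 6.87% of all genes, all lower in LG: Slc2a1 (-1.24 ± 0.23, limma, adjusted p = 0.00536), Slc2a2 (-2.11 ± 0.51, limma, adjusted p = 0.0191) and Eno3 (-1.39 ± 0.31, limma, adjusted p = 0.0131). Pfkp, Aldoa and Gpi1 had the opposite sign there, at 0.28, 0.15 and 0.10. Without W2 no member was called, and Slc2a2 was lost without K1 and without K3. Aldoa and Slc16a1 were not called with no filter. Under median-of-ratios scaling, 8 members were lower and 2 higher, and Aldoa was not called. Slc2a3 was called too with line as a block (-0.58 ± 0.11, limma, adjusted p = 0.00657). Fibroblast markers, which feeders share, summed to 2317 and 1731 RPKM in WT HG on day 12 against 1222 in LG. Mesoderm and heart markers summed to 155 to 513 in HG on both days against 18.7 and 31.5 in LG. Of these 7 genes, 5 were called lower in LG and 1 higher. T went the other way on day 8, at 24.4 RPKM in LG against 2.77 and 2.22 in HG. Parietal endoderm markers also went the other way, at 1542 and 1491 RPKM in HG against 4584 in LG on day 8. On day 12 they summed to 4600 and 3164 in HG against 8608 in LG. Of these 5 genes, 2 were called higher in LG and 0 lower, and of 6 neural genes 3 and 0. Of 10 visceral endoderm genes, 2 were called lower in LG and 0 higher. The part of these markers in the result was not tested.

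In DKO cells on days 8 and 12, 4 of 33 members were called, all lower in LG, against 6.71% of all genes tested in either direction and 4.9% lower. All 4 were among the 9 of WT: Eno3, Slc16a1, Aldoc and Slc2a1. Eno3 was at 34.0 and 34.6 RPKM in K3 in HG, and at 9.90 and 9.28 in K1 and 15.8 and 10.5 in K3 in LG (-1.54 ± 0.18, limma, adjusted p = 0.000493). Slc16a1 was at 184 and 166 in HG and at 37.5 to 84.1 in LG (-1.43 ± 0.21, limma, adjusted p = 0.00221). Slc2a1 was at 359 and 405 in HG and at 200 to 265 in LG (-0.68 ± 0.16, limma, adjusted p = 0.0273). Aldoc was at 7.91 and 7.67 in HG and at 2.67 to 3.29 in LG (-1.12 ± 0.24, limma, adjusted p = 0.0179). For each of these genes every HG value lay above every LG value.

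With line as a block 8 DKO members were called, the further ones being Slc2a3 (-0.86 ± 0.11, limma, adjusted p = 0.00188), Pgls, Pfkm and Pfkfb3, of which Pfkfb3 was higher in LG. As labelled, 0 were called (limma; 8 at an unadjusted p under 0.05), against 1.59% of all genes, and Slc2a1 was at -0.80 ± 0.23. Without W1 or without W2, 1 was called, and without K1, 8. Mesoderm and heart markers summed to 426 and 962 RPKM in K3 in HG and to 28.8 to 91.5 in DKO in LG, with 5 of 7 called lower. T went the other way on day 8, at 58.6 RPKM in K1 and 66.3 in K3 in LG against 22.8 in K3 in HG. The part of these markers was not tested.

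The glucose response itself was not shown to differ between genotypes. In the test of that difference over days 8 and 12, 0 of 33 members passed (limma; 6 at an unadjusted p under 0.05), against 1.25% of all genes tested. As labelled the count was also 0 (limma; 5 at an unadjusted p under 0.05), against 1.03% of all genes, and without K1 it was 2. For Slc2a1 the difference was 0.21 ± 0.23 and for Aldoc 0.46 ± 0.35. Txnip, which served to choose the libraries and so is no independent result, was at 55.8 to 117 RPKM in WT HG and at 24.7 to 38.1 in DKO HG.

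**Figure D2:**
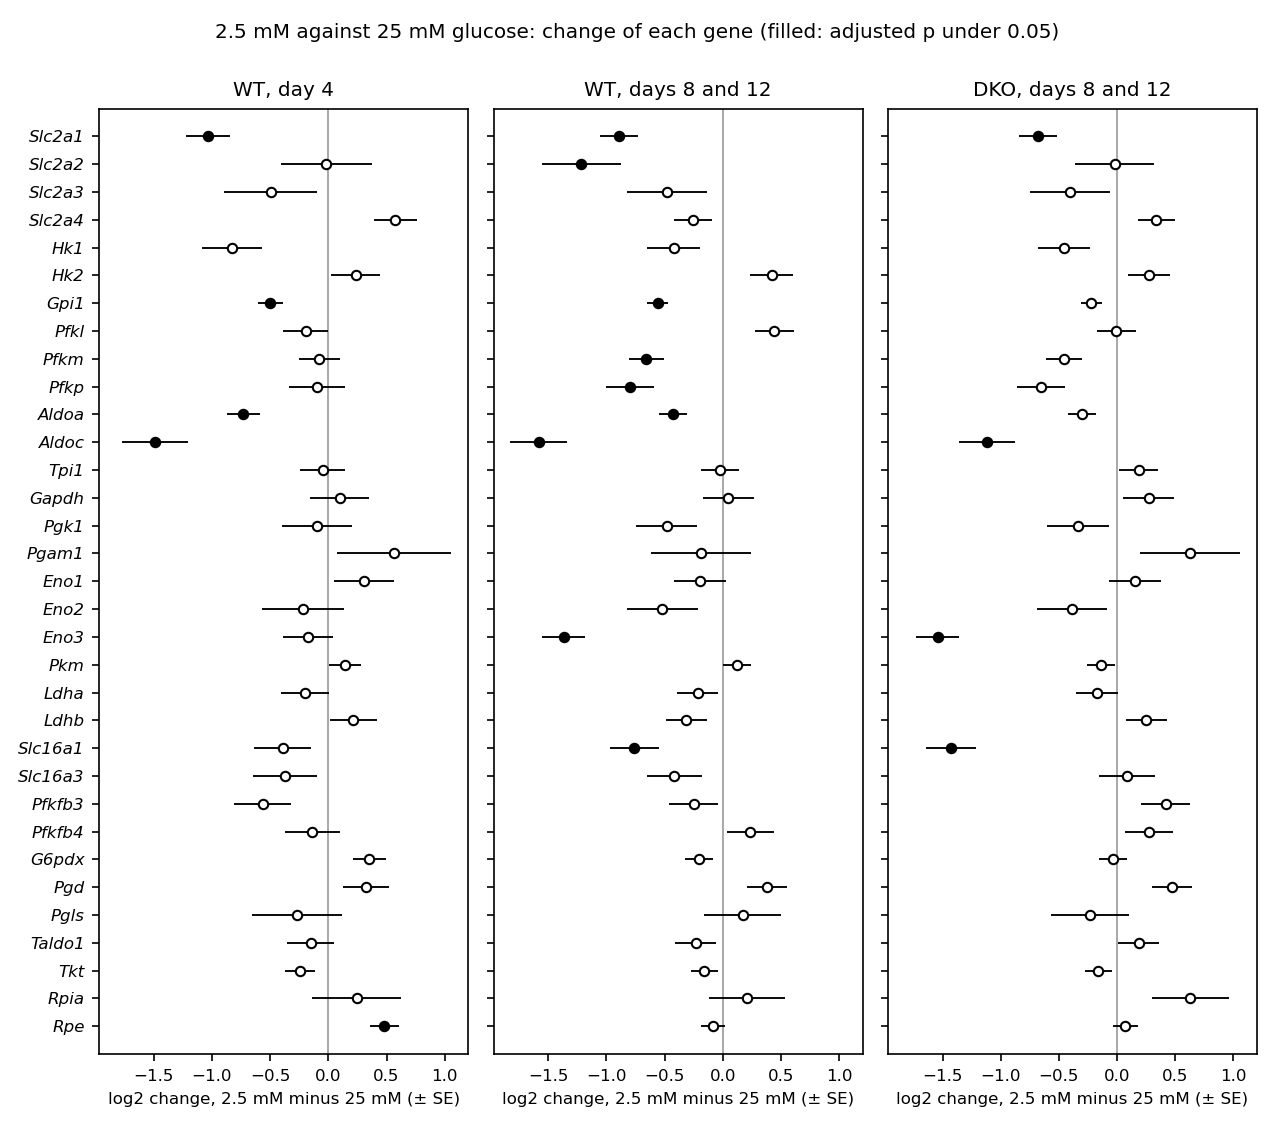
Change from 25 mM to 2.5 mM glucose for each of the 33 members (log2 scale, points with standard error bars), in WT on day 4, WT on days 8 and 12 and DKO on days 8 and 12; filled points passed the adjusted p. Slc2a1 and Aldoc are filled and to the left in all 3 panels, and Eno3 in the 2 later ones.

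The central comparison asked what the loss of AMPK changed. On LG day 2, 0 of 33 members differed between DKO and WT (limma; 4 at an unadjusted p under 0.05), against 0.15% of all genes tested. As labelled the count was also 0 (limma; 1 at an unadjusted p under 0.05), against 0% of all genes. The median change of the members was -0.01. The value farthest from 0 was that of Hk2, which phosphorylates glucose on entry. It was at 75.0 RPKM in W1 and 72.4 in W2, against 37.8 in K1 and 31.4 in K3 (-1.08 ± 0.21, limma, adjusted p = 0.0849). On LG day 4, Hk2 was the only member called, against 1.67% of all genes tested and 1.29% lower, at 62.4 and 52.3 RPKM in WT and 26.5 and 28.4 in DKO (-1.03 ± 0.21, limma, adjusted p = 0.0405). With line as a block Slc16a1 was called too on that day (-0.999 ± 0.23, limma, adjusted p = 0.0461), at 95.2 and 68.4 in WT and 46.4 and 34.3 in DKO. In comparisons between genotypes the block only allows for correlation within a line and does not remove differences between lines. As labelled, 0 were called (limma; 1 at an unadjusted p under 0.05), against 0% of all genes, with Hk2 at -1.10 ± 0.50. The Hk2 call was lost without any 1 of the 4 lines and with no filter. Without W1 or without W2 no member was called, and the 6 called without K1 and the 2 without K3 were other members.

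On LG day 8, 3 of 33 were called, against 18.9% of all genes tested (11% higher, 7.94% lower): Slc16a1 and Hk2 were lower and Ldhb was higher in DKO. Slc16a1 was at 243 RPKM in W1 and at 84.1 in K1 and 76.4 in K3 (-1.59 ± 0.30, limma, adjusted p = 0.00594). Hk2 was at 59.8 against 22.1 and 24.3 (-1.33 ± 0.26, limma, adjusted p = 0.0069). Ldhb was at 31.0 against 80.6 and 79.0 (1.34 ± 0.25, limma, adjusted p = 0.00548). WT was a single line here, so a difference between genotypes and one between W1 and the DKO lines cannot be told apart. The count was 0 as labelled (limma; 0 at an unadjusted p under 0.05), against 0.349% of all genes, with Slc16a1 at -0.13 ± 0.90, Hk2 at -0.53 ± 0.50 and Ldhb at 0.21 ± 1.01. It was 2 without W2, where Slc16a1 was lost, 11 without K1 and 5 without K3. Cell type markers moved with genotype on this day too. Visceral endoderm genes summed to 817 RPKM in W1 against 120 in K1 and 8.03 in K3, with 6 of 10 called lower and Alb at 0 in W1 and K1. Parietal endoderm genes summed to 4584 against 692 and 289, with 2 of 5 called lower, and pluripotency genes to 217 against 582 and 385, with 3 of 8 called higher. Their part was not tested.

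On LG day 12, 10 of 33 members were called, against 35.3% of all genes tested: 7 were higher in DKO and 3 lower, where 22.3% of all genes tested were higher and 13% lower. The share of members called was thus near that of all genes. The median change of the members was 0.38, against 0.16 over all genes. The higher ones were mostly enzymes: Ldhb, Pfkp, Eno3, Pkm, Gpi1 and the transketolase Tkt, with the transporter Slc2a4. The lower ones were the transporters Slc16a1 and Slc2a2 and the hexokinase Hk2.

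Ldhb on LG day 12 was at 16.3 RPKM in W1, 89.9 in K1 and 87.5 in K3, a difference of 2.38 ± 0.25 (limma, adjusted p = 8.21e-05). It was also called without W2, without K1 and without K3. Pfkp, the platelet-type phosphofructokinase, was at 6.92 against 18.5 and 21.1 (1.39 ± 0.29, limma, adjusted p = 0.004). Pkm was at 383 against 633 and 699 (0.80 ± 0.17, limma, adjusted p = 0.00397). Eno3 was at 4.75 against 9.28 and 10.5 (0.92 ± 0.26, limma, adjusted p = 0.017). In all 4 genes both DKO lines lay above W1. Gpi1 was at 78.5 against 113 and 128 (0.61 ± 0.13, limma, adjusted p = 0.00427). Tkt was at 73.0 against 115 and 99.6 (0.55 ± 0.16, limma, adjusted p = 0.0205). Slc2a4 stayed low, at 1.10 against 2.10 and 2.65 (0.68 ± 0.23, limma, adjusted p = 0.0352).

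Among the members lower in DKO on LG day 12, Slc16a1 was at 180 RPKM in W1 against 71.0 and 37.5 (-1.78 ± 0.30, limma, adjusted p = 0.0012). Hk2 was at 44.7 against 22.3 and 30.4 (-0.76 ± 0.26, limma, adjusted p = 0.0395). Slc2a2 was at 4.21 against 0.665 and 0.261 (-1.85 ± 0.48, limma, adjusted p = 0.0114). Ldha was at 416 against 633 and 578 without passing (0.54 ± 0.25, limma, adjusted p = 0.116), as was Pfkfb3, which makes fructose 2,6-bisphosphate, at 13.8 against 23.6 and 25.8 (0.80 ± 0.30, limma, adjusted p = 0.0561). Pfkfb3 passed with line as a block (0.79 ± 0.28, limma, adjusted p = 0.0423). Slc2a1 was at 290 against 227 and 200 (-0.44 ± 0.23, limma, adjusted p = 0.15) and Slc2a3 at 505 against 371 and 170 (-1.003 ± 0.49, limma, adjusted p = 0.13).

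As labelled, 0 of 33 were called on LG day 12 (limma; 2 at an unadjusted p under 0.05), against 3.84% of all genes. Gpi1, Pfkp and Tkt had the opposite sign there, at -0.25, -0.05 and -0.08, and Ldhb was at 0.62 ± 1.01. The members' median was -0.08 as labelled, below 0, against 0.08 over all genes. The count was 6 without W2, where Hk2, Tkt, Eno3 and Slc2a4 were lost, and 17 without K1 and without K3 each. Hk2 and Tkt were also lost without K1, Slc2a2 and Slc2a4 without K3, and Hk2 with no filter. Under median-of-ratios scaling Tkt and Slc2a4 were not called. Slc2a2 passed the filter only through WT values, so its call is no independent result. Calls over all genes moved with the line left out too, so the counts without a line are not particular to the members. Cell type markers moved with genotype: 8 pluripotency genes summed to 66.1 RPKM in W1, 513 in K1 and 383 in K3, with 7 of the 8 called higher. Visceral endoderm genes summed to 3513 against 233 and 174, with 7 of 10 called lower, and parietal endoderm genes to 8608 against 634 and 441, with 5 of 5 called lower. Fibroblast genes summed to 1222 against 314 and 488, with 4 of 7 called lower. No gene of these 4 lists was at 0. The part of cell makeup in the differences of the members was not tested.

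In high glucose the DKO arm was K3 alone. On both days below, the share of members called was near that of all genes. On HG day 8, 5 of 33 members were called, against 15.3% of all genes tested (7.89% higher, 7.38% lower), with Ldhb higher and Slc2a2, Hk2, Slc2a1 and Gpi1 lower. Ldhb was at 35.7 RPKM in W1 and 41.2 in W2 against 75.3 in K3 (0.95 ± 0.25, limma, adjusted p = 0.0261). Hk2 was at 30.1 and 50.4 against 18.3 (-1.05 ± 0.26, limma, adjusted p = 0.0216). Slc2a1 was at 604 and 656 against 359 (-0.81 ± 0.23, limma, adjusted p = 0.0351). Gpi1 was at 194 and 174 against 130 (-0.49 ± 0.13, limma, adjusted p = 0.0277) and Slc2a2 at 13.7 and 3.94 against 0.031 (-3.04 ± 0.48, limma, adjusted p = 0.00463). In each, K3 lay outside the range of both WT lines. As labelled the count was 0 (limma; 2 at an unadjusted p under 0.05), against 0.0134% of all genes. It was 1 without W1 and 1 without W2, the gene being Slc2a2, and 13 without K1. Slc2a2 passed the filter only through WT values, so its call is no independent result. Gpi1 was not called under median-of-ratios scaling, nor Slc2a1 with no filter. Visceral endoderm genes summed to 2641 and 1459 RPKM in WT against 74.2 in K3, with 6 of 10 called lower and Alb at 0 in all 3 lines. Fibroblast genes summed to 178 and 149 against 27.2, with 5 of 7 called lower, and pluripotency genes to 194 and 303 against 488, with 3 of 8 called higher. Their part was not tested.

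On HG day 12, 11 of 33 were called, against 32.2% of all genes tested, 6 higher and 5 lower in DKO, where 20.2% of all genes were higher and 12% lower. Ldhb was at 19.5 and 21.9 RPKM in WT and 66.1 in K3 (1.63 ± 0.25, limma, adjusted p = 0.000979). Pkm was at 323 and 391 against 773 (1.12 ± 0.17, limma, adjusted p = 0.000915), and Eno3 at 13.4 and 10.9 against 34.6 (1.45 ± 0.26, limma, adjusted p = 0.00229). Pfkp, Pfkl (the liver-type phosphofructokinase) and Tkt were higher by 1.13, 0.85 and 0.55. Of these, 5 were also higher on LG day 12, all but Pfkl.

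Slc16a1 on HG day 12 was at 413 and 404 RPKM in WT and 166 in K3 (-1.29 ± 0.30, limma, adjusted p = 0.00795). Slc2a1 was at 581 and 743 against 405 (-0.70 ± 0.23, limma, adjusted p = 0.0361), and Hk2 at 34.0 and 41.8 against 22.2 (-0.74 ± 0.26, limma, adjusted p = 0.0469). Slc2a2, at 5.46 and 8.95 against 0.790, was lower by a change of -2.16 ± 0.48 (limma, adjusted p = 0.00636). Rpia, ribose-5-phosphate isomerase, was at 8.01 and 9.11 against 2.49 (-1.45 ± 0.47, limma, adjusted p = 0.033). Slc2a3 was at 898 and 917 against 455 without passing (-0.99 ± 0.49, limma, adjusted p = 0.137), Ldha at 494 and 562 against 771 (0.55 ± 0.25, limma, adjusted p = 0.114), and Pfkfb3 at 17.3 and 17.6 against 18.1.

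As labelled, 0 were called on HG day 12 (limma; 9 at an unadjusted p under 0.05), against 3.58% of all genes, with Pkm at 1.36 ± 0.39, Ldhb at 2.4003 ± 1.01 and Slc16a1 at -2.48 ± 0.90. Without W1 the count was 2 (Ldhb and Slc2a2), without W2 it was 3 (these and Pkm) and without K1 it was 16, with Hk2 lost. As on day 8, Slc2a2 passed the filter only through WT values. Tkt was not called under median-of-ratios scaling, nor Hk2, Slc2a1 and Rpia with no filter. Pluripotency markers summed to 41.7 and 53.3 RPKM in WT and 273 in K3, with 6 of 8 called higher, and visceral endoderm markers to 5147 and 7619 against 1324, with 4 of 10 called lower. Mesoderm and heart markers summed to 165 and 155 in WT and 962 in K3, with 6 of 7 called higher, and neural markers to 11.2 and 11.7 against 110, with 6 of 6 called higher. Fibroblast markers summed to 2317 and 1731 against 186, with 6 of 7 called lower and 1 higher. Their part was not tested. For stem cells, HG day 2 and HG day 4, no comparison between genotypes could be made without the contradicted libraries, and as labelled 0 members and 0% of all genes were called in each (limma; 0, 1 and 0 members at an unadjusted p under 0.05).

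**Figure D3:**
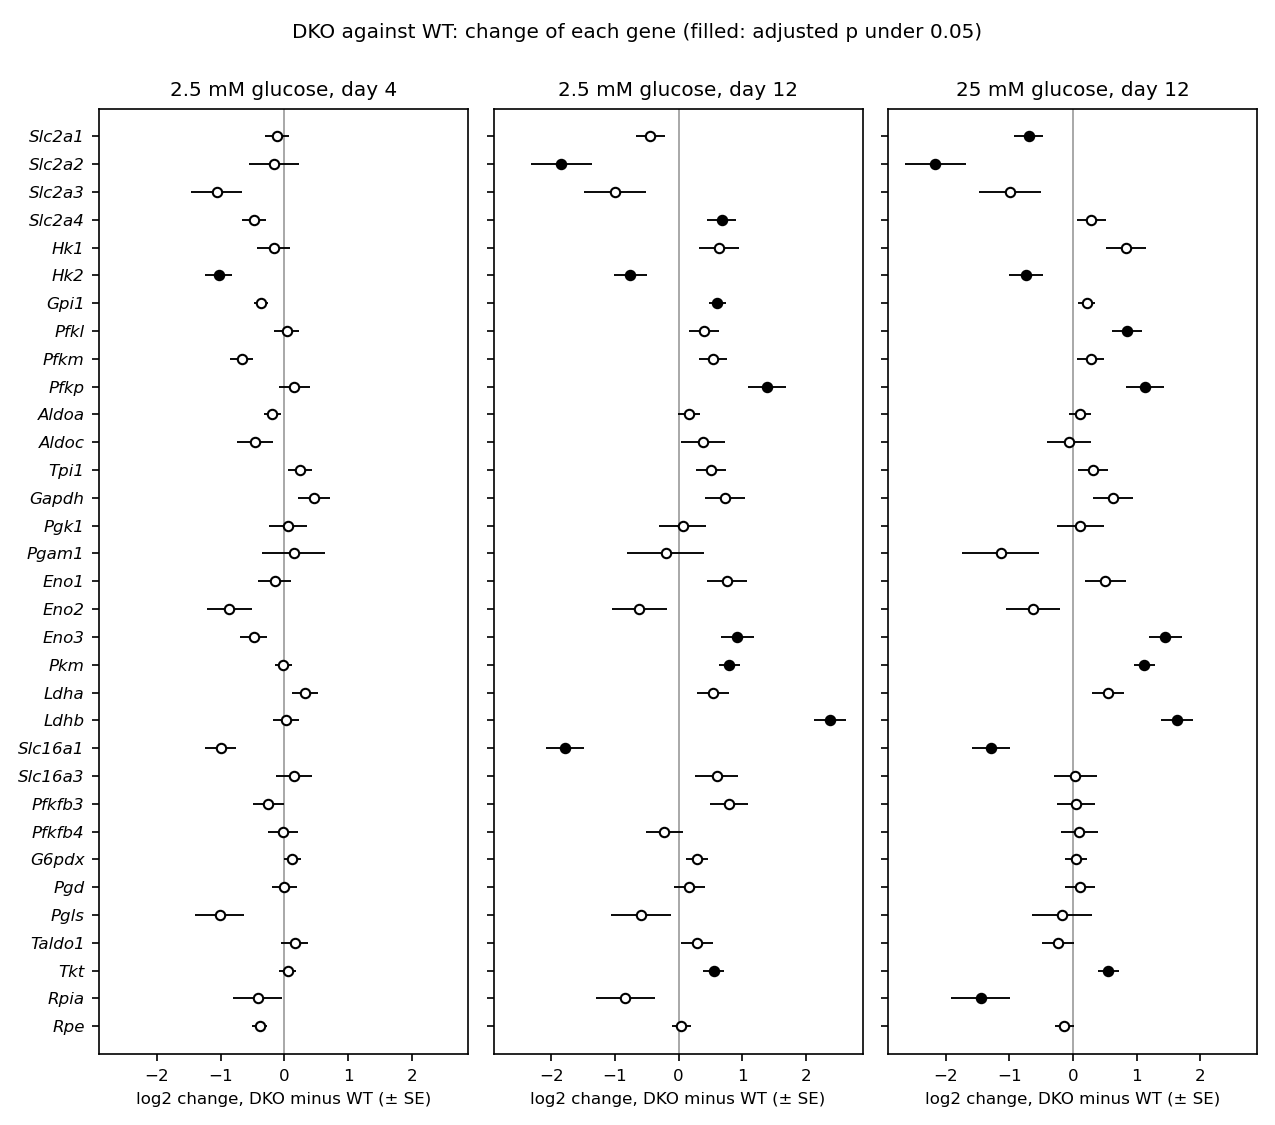
DKO minus WT change of each member (log2 scale, points with standard error bars) on LG day 4, LG day 12 and HG day 12; filled points passed the adjusted p. Ldhb is at 0.03 on LG day 4 and at 2.38 on LG day 12, while Hk2 is filled and below 0 in all 3 panels.

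A total of 7 members lie on chromosome 6, in order Rpia, Hk2, Slc2a3, Eno2, Tpi1, Gapdh and Ldhb, and stretches of that chromosome differ between the DKO lines and WT. Each was therefore set beside up to 20 tested neighbours, 10 on each side, over LG days 2 and 4. Hk2 (chromosome 6, 82725027 to 82774454, mm10) was lower than the WT lines by a change of -1.01 in K1 and -1.09 in K3. The median of its neighbours was -0.57 in K1, with 17 of 20 lower, and -0.70 in K3, with 20 of 20 lower. Rpia (70765720 to 70792175) was at -0.15 in K1, where its neighbours had a median of 0.01, and at -0.76 in K3, where theirs was -0.77 and 20 of 20 were lower. On days 8 and 12 Hk2 was at -1.19 in K1 in LG, with a neighbour median of -0.40 and 12 of 20 lower, and in K3 at -0.90 in LG and again in HG, with neighbour medians of -0.69 and -0.87 and 17 of 20 lower in each. Rpia in K3 on those days was at -1.46 in LG and -1.36 in HG, below neighbour medians of -0.57 and -0.76, with 15 and 14 of 20 lower. On the early days the Rpia value of K3 thus matched that of its neighbours, and on the later days it lay below their median.

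Slc2a3 (122727809 to 122742745) was at -0.22 in K1 and -1.03 in K3, and Eno2, the neuronal enolase (124760053 to 124769673), at -0.04 and -0.95. Their neighbours had medians of 0.35 and -0.04 for Slc2a3 and 0.28 and -0.03 for Eno2, so both genes stood below their surroundings in each DKO line. Tpi1 and Gapdh were at 0.39 and 0.37 in K1 with neighbours at 0.27 and 0.19, and at 0.17 and 0.09 in K3. Ldhb (142490249 to 142507957) was at 0.09 in K1 and -0.24 in K3 on the early days. On LG days 8 and 12 it was at 1.87 in K1 and 1.84 in K3, while its neighbours had medians of 0.42 and 0.56. These differences carry no test, and what part of each the chromosome stretch has was not tested. In the tests by condition, Tpi1, Gapdh, Eno2 and Slc2a3 passed in none of the 6 genotype comparisons.

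**Figure D4:**
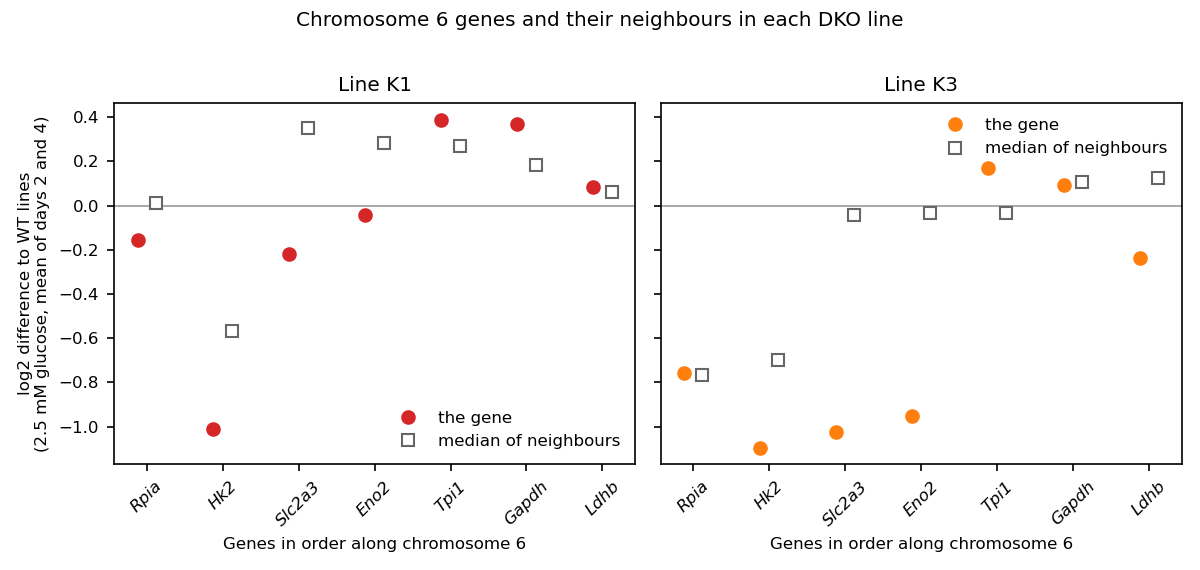
Difference from the WT lines (log2 scale, mean of LG days 2 and 4) of each chromosome 6 member (filled circle) and the median of its tested neighbours (open square), in line K1 and line K3. Hk2 and its neighbours are low in both lines, Rpia and its neighbours in K3, and Slc2a3 and Eno2 lie below their neighbours in both lines.

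Over time in low glucose, 18 of 33 members fell in WT between day 2 and day 12 and 3 rose, against 54.3% of all genes tested, of which 30% were higher and 24.4% lower. The members' median was -0.73, against 0.10 over all genes. The fallers took in the sugar phase (Hk2, Gpi1, Pfkm, Pfkp, Aldoa and Aldoc), the triose phase (Gapdh, Pgk1, Pgam1, Eno1, Eno3 and Pkm), Ldhb, and the pentose phosphate genes G6pdx, Pgd, Taldo1, Tkt and Rpe. The risers were the transporters Slc16a1 and Slc2a2 and Pfkfb4, which also makes fructose 2,6-bisphosphate. With line as a block 17 fell and 7 rose: Hk2 was no longer called (limma, adjusted p = 0.0605), and Slc2a3 (0.50 ± 0.15), Eno2, Pgls and Rpia were called higher.

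Ldhb in WT fell from 213 RPKM in W1 and 236 in W2 on day 2, through 139 and 228 on day 4 and 31.0 on day 8, to 16.3 on day 12 (-3.70 ± 0.25, limma, adjusted p = 6.67e-07). Pfkp fell from 57.8 and 57.7 to 6.92 (-2.89 ± 0.29, limma, adjusted p = 9.44e-06), Eno1 from 390 and 396 to 89.2 (-2.13 ± 0.32, limma, adjusted p = 0.000146) and Pkm from 1217 and 1215 to 383 (-1.66 ± 0.17, limma, adjusted p = 9e-06). Gpi1 fell from 213 and 209 to 78.5 (-1.41 ± 0.13, limma, adjusted p = 5e-06). In each of these genes the day 12 value lay far below both day 2 values. Slc16a1 rose from 47.9 and 45.9 to 180 (1.92 ± 0.30, limma, adjusted p = 0.000208). Slc2a2 was listed at 0 in all 4 lines on LG day 2 and at 4.21 in W1 on day 12, so no fold is given. It passed the filter only through late WT values, so its rise is no independent result. Slc2a1 (216 and 204 to 290) and Ldha (639 and 605 to 416) did not pass, at adjusted p of 0.102 and 0.0699 by limma.

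In DKO over the same span 16 of 33 were called, 12 lower and 4 higher, against 50.9% of all genes tested, of which 33.4% were higher and 17.5% lower. Ldhb fell from 206 and 189 RPKM to 89.9 and 87.5 (-1.15 ± 0.20, limma, adjusted p = 0.000575), Pfkp from 72.5 and 50.9 to 18.5 and 21.1 (-1.57 ± 0.24, limma, adjusted p = 0.000191), and Pkm from 1098 and 1093 to 633 and 699 (-0.72 ± 0.14, limma, adjusted p = 0.000958). Eno1 fell from 372 and 416 to 208 and 111 (-1.37 ± 0.26, limma, adjusted p = 0.000885). Pgam1 fell from 25.6 and 24.7 to 10.9 and 2.30, and Pgk1 from 48.1 and 50.3 to 21.1 and 11.9. The calls of Pgam1 and Pgk1 were lost under no alternative, but both genes have near-identical copies in the genome. The other fallers were Gpi1, Aldoa, G6pdx, Pgd, Taldo1 and Rpe. The risers were Pfkfb3, from 9.27 and 10.7 to 23.6 and 25.8 (1.23 ± 0.24, limma, adjusted p = 0.00125), the hexokinase Hk1, from 6.80 and 6.93 to 11.3 and 20.3 (1.04 ± 0.26, limma, adjusted p = 0.00525), Slc2a4 and Pfkfb4. Slc16a1, at 41.9 and 35.9 on day 2 and 71.0 and 37.5 on day 12, did not pass (0.40 ± 0.25, limma, adjusted p = 0.191).

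The block gave 14 lower and 5 higher in DKO, the further ones being Aldoc and Gapdh, lower, and Pgls, higher.

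As labelled, 0 members were called over this span in WT (limma; 9 at an unadjusted p under 0.05), against 0.778% of all genes and with Ldhb at -1.95 ± 1.01, and 3 in DKO, against 18.6%. The labelled DKO calls were Pgk1, Pgam1 and Hk1, each with a main change in the same direction. Without W2 the WT count was 14, with Hk2, Aldoc, Pgk1, Pgam1, Pgd, Taldo1 and Pfkfb4 lost, and the DKO count was 13 to 15 without any 1 line. Pluripotency markers fell in both genotypes, with 8 of 8 called, while visceral endoderm markers rose in 9 of 10 in WT and 6 of 10 in DKO. Their part in the falls was not tested.

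Between days 2 and 4, 1 of 33 was called in WT, against 8.64% of all genes tested (2.24% lower), and 1 in DKO, against 3.03% (0.784% lower). In both it was Pfkp, which fell from 57.8 and 57.7 RPKM to 24.7 and 24.9 in WT (-1.19 ± 0.24, limma, adjusted p = 0.0111) and from 72.5 and 50.9 to 33.7 and 22.8 in DKO (-1.10 ± 0.24, limma, adjusted p = 0.0318). With line as a block 4 were called in WT, the others being Slc2a1, Slc2a3 and Slc16a1, all higher on day 4. As labelled 0 members and 0% of all genes were called in each genotype (limma; 0 members at an unadjusted p under 0.05). The WT count was 0 without W1 or without W2 and 5 without K1 or without K3, and the DKO count was 0 without any 1 line.

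The change from day 2 to day 12 itself differed between genotypes for 8 of 33 members, 7 above 0 and 1 below, against 18.4% of all genes tested (12.3% above, 6.09% below). The fit with line as a block called 10, 8 above 0 and 2 below, the further ones being Tkt (0.63 ± 0.19, limma, adjusted p = 0.0331) and Slc2a3 (-0.71 ± 0.20, limma, adjusted p = 0.0252). Ldhb fell less in DKO, the difference being 2.56 ± 0.32 (limma, adjusted p = 0.000982). Differences were also above 0 for Gpi1 (0.87 ± 0.17), Pkm (0.95 ± 0.22), Eno3 (1.39 ± 0.34), Pfkm (1.01 ± 0.28), Slc2a4 (1.02 ± 0.29) and Pfkp (1.32 ± 0.38), with limma adjusted p from 0.00672 to 0.0334. For Slc16a1 the difference was -1.52 ± 0.39 (limma, adjusted p = 0.021). As labelled, 0 were called (limma; 2 at an unadjusted p under 0.05), against 0.0335% of all genes, with Ldhb at 0.81 ± 1.43 and Pfkp reversed at -0.12. Without W2, 1 member was called (Ldhb), without K1, 11, and without K3, 10, with Pfkp and Slc2a4 lost. Pkm and Pfkp were not called under median-of-ratios scaling.

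Isozyme make-up shows the same genes as shares of summed RPKM, which is per transcript length. Ldhb made up 25.0% of Ldha and Ldhb together in W1 on LG day 2, then 15.1%, 4.44% and 3.77% on days 4, 8 and 12. In W2 it was 28.04% on day 2 and 24.5% on day 4, so the WT lines themselves differed on day 4. In K1 the shares were 21.4%, 23.8%, 9.61% and 12.4%, and in K3 19.6%, 11.0%, 9.08% and 13.1%. Both DKO lines thus kept a larger Ldhb share than W1 on days 8 and 12. Slc16a1 made up 38.7% of both lactate transporters in W1 on LG day 2 and 80.2% on day 12, against 29.7% and 44.6% in K1 and 31.0% and 41.8% in K3. Hk2 made up 92.1% of both hexokinases in W1 on LG day 2 and 82.6% on day 12, against 84.8% and 66.4% in K1 and 81.9% and 60.0% in K3. The Pfkp share of the 3 phosphofructokinases went from 27.2% to 6.25% in W1, from 31.8% to 11.7% in K1 and from 23.6% to 13.2% in K3. These shares carry no test of their own.

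**Figure D5:**
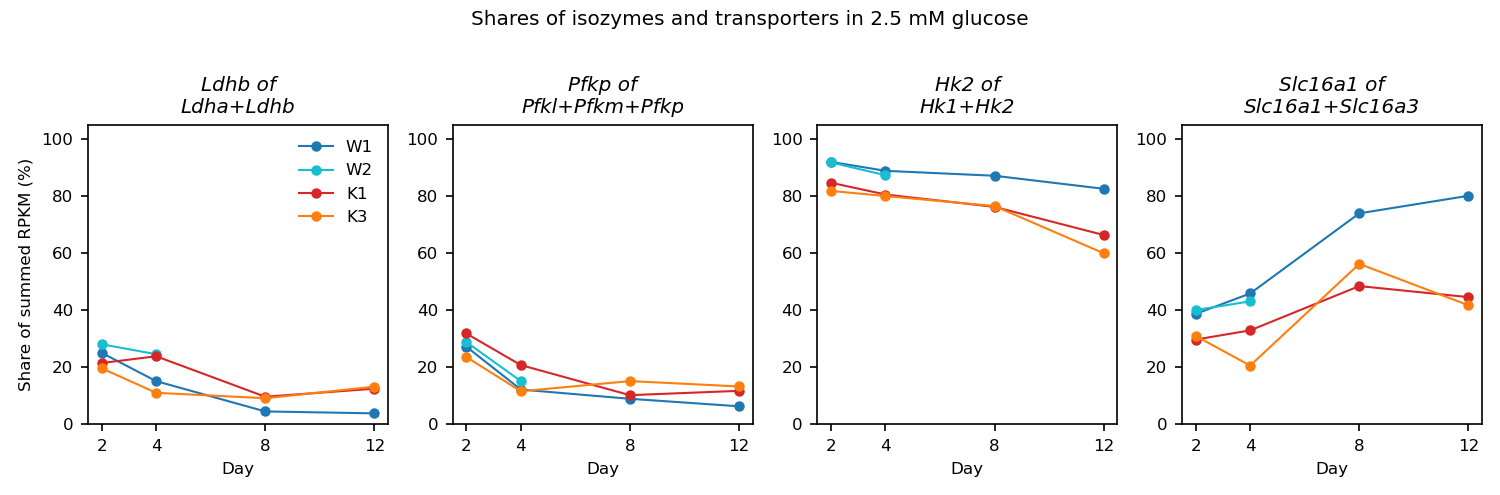
Share (percent of summed RPKM) of Ldhb, Hk2, Slc16a1 and Pfkp within their isozyme or transporter group by day in low glucose, 1 line of points per cell line. The DKO lines end above W1 for Ldhb and below it for Hk2 and Slc16a1.

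Other genes of glucose metabolism were followed as a list of 61, of which 60 were in the table and 40 were tested. One of the 40 was Txnip, which served to choose the libraries, so counts are of the other 39. The list holds pyruvate dehydrogenase and its kinases, gluconeogenic enzymes, further transporters and the glucose-induced pair Txnip and Arrdc4. Between genotypes, 0 of 39 were called on LG days 2 and 4 (limma; 0 and 1 at an unadjusted p under 0.05). On LG day 8, 3 were higher and 8 lower in DKO, against 18.9% of all genes called, and on LG day 12, 7 were higher and 10 lower, against 35.3%. On HG day 8, 2 were higher and 8 lower, against 15.3%, and on HG day 12, 8 and 8, against 32.2%. As labelled 0 of 44 were called on LG days 8 and 12 and HG day 8 (limma; 5, 7 and 7 at an unadjusted p under 0.05), and 2 on HG day 12, both lower. The smallest p on LG day 12 belonged to Pdk3, a kinase that inactivates pyruvate dehydrogenase (1.56 ± 0.27, limma, adjusted p = 0.00141), Prps1, which makes phosphoribosyl pyrophosphate from ribose phosphate (1.15 ± 0.21, limma, adjusted p = 0.00168), the dehydrogenase Dld (0.59 ± 0.11) and Bsg. Bsg, also called basigin or CD147, is the partner that carries Slc16a1 to the membrane, and it was lower in DKO by -0.88 ± 0.18 (limma, adjusted p = 0.00283). On HG day 12 they were H6pd (-1.29 ± 0.20), Prps1 (1.35 ± 0.21), Pklr, the liver pyruvate kinase (-1.66 ± 0.26), and Arrdc4 (-2.32 ± 0.40).

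Under the glucose change, 1 of the 39 was higher and 4 lower in LG in WT on day 4, against 12.2% of all genes called, 2 and 10 on days 8 and 12, against 14.8%, and 0 and 5 in DKO on days 8 and 12, against 6.71%. As labelled 0, 4 and 1 of 44 were called, all lower (limma; 0, 13 and 12 at an unadjusted p under 0.05). Arrdc4 was called in all 3, at -3.53 ± 0.33, -2.87 ± 0.29 and -1.44 ± 0.29 (limma, adjusted p = 0.000245, 0.000123 and 0.0106). As Txnip, the other gene of that glucose-induced pair, served to choose the libraries, the fall of Arrdc4 is no independent result. Slc2a12, a further glucose transporter, was called in all 3 as well, at -0.48 ± 0.13, -0.88 ± 0.12 and -0.63 ± 0.12. Between LG days 2 and 12, 12 of the 39 rose and 9 fell in WT, against 54.3% of all genes called, and 7 rose and 9 fell in DKO, against 50.9%. As labelled 0 of 44 were called in WT (limma; 8 at an unadjusted p under 0.05) and 4 in DKO. In WT the smallest p belonged to Prps1, which fell by 2.22, and to the pyruvate dehydrogenase kinases Pdk1 and Pdk4, which fell by 2.4003 and 1.66, and Pdk2, which rose by 2.56. The change from day 2 to day 12 differed between genotypes for 8 of the 39, 5 above 0 and 3 below, against 18.4% of all genes, and as labelled for 0 of 44 (limma; 2 at an unadjusted p under 0.05).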

How the data were processed

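Messenger RNA was sequenced from 42 libraries of 4 mouse cell lines with a kit that does not mark strand, per the labels' protocols. The authors deposited 1 table of RPKM values for 24225 genes on mm10 with transcript lengths, per the file headers. Upstream tools, without roles, were STAR 2.4.0k, edgeR 3.6.8, R 3.1.1, HOMER and FastQC 0.11.2, per the submitters' processing notes. The treatment of multiply mapped reads is not given in the sources used here. Being relative, RPKM has the limit that a shift in abundant transcripts moves all others. Low values were whole multiples of 1 read within 0.1 read in 100% of cases, which gave the depth; no count model was run.

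Columns were assigned by heading, and 6 headings, all of day 4, stood over 2 columns. The p-values measure only the spread between these samples. Libraries were set aside where Meg3 (under 1 RPKM marks W2), Ddx3y (under 2 K1, over 10 K3) or Txnip (over 5 in HG) contradicted the heading, a choice made with the data seen; these genes are no independent result. Repeat columns of a line and condition were averaged on the log scale, leaving 23 values. limma 3.58.1 (R 4.3.3) fitted group means to log2(RPKM + 1) for the 14670 genes that reached 1 RPKM in 2 or more values, with 9 residual degrees of freedom and Benjamini-Hochberg adjustment over all genes (threshold 0.05). An arm with 1 line was assumed to vary like the others. The fit treats values of 1 line as independent. Same-line values deviated together (correlations 0.116 to 0.640 in every pair of conditions), so line pairs the samples, and a fit with line as a replicate block was made. Comparisons of glucose, of time and of the differences between such changes had line as a term of the model. Comparisons between genotypes within a condition used 1 shared within-line correlation (0.195) instead, which does not remove differences between lines. Tests were checked on simulated data. The RPKM of contradicted libraries entered the fit as labelled (36 values, 14914 genes).

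The members, the list of 61 further genes and the marker lists were chosen with earlier results of these data known. Where space allowed, values are given for up to 8 rises and 8 falls called per comparison, not always the largest. The same holds for the members on chromosome 6, for Slc2a1, Slc2a2, Slc2a3, Hk2, Ldha, Pfkfb3 and Txnip, and for the 4 further genes of smallest p per comparison. Alternatives were another pseudocount (0.1), no filter, median-of-ratios scaling, libraries chosen by Prkaa2 and Txnip alone, and leaving out each line.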

Additional observations from a re-analysis of the deposited data

Results flagged for a closer look

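Among the 4 libraries labelled WT LG day 4, the library under the first of the W2 headings stood apart for 5 members of 66 group and gene pairs examined, by a gap to the nearest library above Dixon's limit for 4 samples. It held Hk1 at 16.8 RPKM (the others 7.28 to 8.24), Gpi1 at 417 (175 to 211), Pfkp at 42.7 (23.3 to 26.3), Aldoc at 24.9 (4.94 to 7.22) and Taldo1 at 145 (93.9 to 101). Chance flags about 1 in 20 groups. Its Txnip level contradicted its low glucose heading, and it entered only the fit as labelled.

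The change from LG day 2 to day 12 differed between DKO and WT, by the test of the difference (DKO minus WT, log2 scale), for 8 members. The difference was 2.56 for Ldhb, 0.87 for Gpi1, 0.95 for Pkm, 1.39 for Eno3, -1.52 for Slc16a1, 1.01 for Pfkm, 1.02 for Slc2a4 and 1.32 for Pfkp. WT day 12 rested on W1 in this test. Pluripotency markers differed likewise, in 7 of 8 genes, and their part was not tested.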

How the results depend on the processing

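Counts are of the 33 members called. As labelled they were 0 for the genotype on LG days 4, 8 and 12 (1, 3 and 10 without the contradicted libraries), HG day 8 (5) and HG day 12 (11), 0 for WT glucose on day 4 (5), 3 on days 8 and 12 (9), 0 for DKO glucose (4), 0 for WT day 4 against 2 (1) and 12 against 2 (21), 0 and 3 for DKO (1 and 16), and 0 for the genotype by day (8). All these are by limma. Of 95 called pairs of gene and comparison, 6 were still called as labelled and 8 reversed: Pfkp by genotype and day (-0.12), Gpi1 (-0.25), Pfkp (-0.052) and Tkt (-0.085) by genotype on LG day 12, Aldoa (0.15), Gpi1 (0.10) and Pfkp (0.28) by WT glucose on days 8 and 12, and Aldoc by WT time (0.0096). With libraries chosen by Prkaa2 and Txnip alone, 61 of the 95 were called, and counts became 0, 1 and 6 for LG days 4, 8 and 12, 1 for HG day 8, 0 and 6 for WT glucose, 1 for DKO glucose, 0 for DKO day 4 against 2 and 2 for genotype by day; HG day 12 gave 14. Calls over all genes fell in the same comparisons and rose on HG day 12. The cause of these changes was not tested.

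A pseudocount of 0.1 kept 93 of the 95 pairs, no filter 83 and median-of-ratios scaling 86. Without a filter LG day 4 and DKO day 4 against 2 fell to 0, and scaling moved LG day 4 to 2. That scaling moved the median change of all genes from 0.19 to 0.03 for DKO day 12 against 2, from 0.17 to 0.04 for genotype by day, from 0.11 to -0.00 for DKO day 4 against 2 and from 0.16 to 0.06 on LG day 12. With line as a replicate block 94 pairs were called, and counts became 2 on LG day 4, 9 for WT glucose on day 4, 8 for DKO glucose and 4 for WT day 4 against 2. Over all genes, calls rose in the same comparisons with the block. The block ended the call of Hk2 in WT day 12 against 2 (limma, adjusted p = 0.0605) and changed no other call to a miss.

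Leaving out 1 line at a time gave counts from 0 to 1 on LG day 2, 0 to 6 on LG day 4, 2 to 11 on LG day 8, 6 to 17 on LG day 12, 1 to 13 on HG day 8, 2 to 16 on HG day 12, 0 to 10 for WT glucose on day 4 and again on days 8 and 12, 1 to 8 for DKO glucose, 0 to 5 for WT day 4 against 2, 14 to 29 for WT day 12 against 2, 0 to 0 and 13 to 15 for DKO, 1 to 11 for genotype by day and 0 to 2 for genotype by glucose. Where a line was the whole arm (W1 in LG and K3 in HG on days 8 and 12), no value could be had without it. These fits had 4 or 5 residual degrees of freedom. Calls over all genes fell in every comparison without W1 or without W2 and rose in most without K1. The counts of members are thus not particular to them. Members at a few RPKM rest on few reads, and their folds are understated.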
